A study of Mus musculus with 217 samples.

Results

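The mutant huntingtin effect in the cortex at 6 months was measured in 20 of the 217 libraries of the series, each from the cortex of a different mouse. These 20 were chosen by their group labels alone: 10 LacQ140 mice and 10 WT + IPTG mice, with 5 females and 5 males on each side. LacQ140 mice were heterozygous for a knock-in Htt allele with Lac operators around its start site and a chimeric exon 1 carrying an expanded CAG repeat (Hdh LacO-140Q/+ in the labels). They also carried the beta-actin-LacIR transgene, which expresses a Lac repressor in all tissues. They received the inducer IPTG from embryonic day 5 until tissue was taken, which releases the repressor and leaves the mutant allele expressed. WT + IPTG mice were labelled Hdh LacO-+/+ and had the same repressor transgene and the same IPTG schedule. The other 3 cortical groups of that age, 10 mice each, entered the fit and give reference levels: WT (transgene, no IPTG), LacQ140_A (no IPTG at any time, so that the mutant allele stayed repressed) and LacQ140_2M (IPTG withdrawn at 2 months). The allele was targeted in W9.5 embryonic stem cells, passed on from 2 separately targeted clones, and backcrossed to C57BL/6J. Mice were housed by sex, genotype and treatment, so cage and genotype cannot be told apart.

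Huntingtin with an expanded polyglutamine tract causes Huntington's disease. Cortical pyramidal neurons are among the affected cells, and they supply the striatum with glutamatergic input and with brain-derived neurotrophic factor. Proteins that enter the endoplasmic reticulum are folded there by chaperones of its own, whose genes are known to be controlled by the factors Atf6 and Xbp1 in the unfolded protein response.

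The 20 libraries held 37915509 to 59835670 estimated counts. The cortical label held: Camk2a, a kinase of forebrain excitatory neurons, stood at 3097 to 4461 CPM (counts scaled to a common library total with TMM factors), and the striatal receptor gene Drd2 had cortical medians of 2.02 CPM (LacQ140) and 2.28 CPM (WT + IPTG) against a mean of 215 CPM in WT + IPTG striatum. Choroid plexus and meningeal genes stood apart in 3 libraries, where the 16 genes listed summed to 3250 CPM (LacQ140 F1), 3493 CPM (WT + IPTG M1) and 4135 CPM (WT + IPTG F4), beside a median of 1586 CPM over LacQ140 and of 1781 CPM over WT + IPTG. Letters and digits in these names give the sex and the replicate number. All 16 genes had a log2 fold change below 0. None was called by edgeR, the main test, where 6 had an unadjusted p under 0.05, and 2 were called by DESeq2. Among all genes of at least 1 CPM the shares were 1.96% called by edgeR, 17.0% at an unadjusted p under 0.05 (9.94% of all genes tested) and 2.6% called by DESeq2.

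Htt itself was lower with the knock-in allele. Its total level, both alleles together, was 81.3 CPM at the lowest, 94.3 at the median and 109 at the highest in LacQ140, against 107.8, 116.02 and 138 CPM in WT + IPTG. In 9 of the 10 LacQ140 libraries it lay below every WT + IPTG library. The log2 fold change was -0.36 ± 0.07 (SE, edgeR quasi-likelihood test, adjusted p = 0.00428), and the call held with each of the 20 libraries left out in turn. Where the allele was repressed the means were 81.5 ± 7.25 CPM in LacQ140_A and 76.9 ± 11.3 CPM in LacQ140_2M (SD, n = 10), beside 93.7 ± 8.74 CPM in LacQ140 and 123 ± 15.7 CPM in WT. Htt lies at chr5:34761740-34912534 on the plus strand (GRCm38) and overlaps Msantd1 on the same strand. The counts do not separate the alleles.

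A small set of genes differed between LacQ140 and WT + IPTG cortex. A gene was called at a Benjamini-Hochberg adjusted p under 0.05 together with a change of at least 20%. By this rule 317 of 35987 genes were called (0.881%), 136 higher (0.378%) and 181 lower (0.503%) in LacQ140. Among the 14858 genes with a mean of at least 1 CPM the shares were 1.96% in all, 0.761% risen and 1.2% fallen. IPTG alone changed 219 genes in WT + IPTG against WT cortex (0.609%). Of these, 29 were among the 317, all with the opposite sign, and both comparisons use the WT + IPTG libraries. Setting the 29 aside left a signature of 288 genes, 120 risen and 168 fallen, of which 252 are annotated as protein coding.

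Most changes were small. The median log2 fold change was 0.46 among risen and -0.37 among fallen signature genes, and 19 of the 288 changed by a factor of 2 or more, 3 of them with a mean of at least 1 CPM. In 21 signature genes the groups did not overlap, 11 risen and 10 fallen, against 42 genes (0.117%) among all those tested. Many calls rested on single libraries: 37.5% of the 288 genes, 41 risen and 67 fallen, were called with every library left out in turn.

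The risen genes of smallest p were of mixed function. Abhd1, a gene of the alpha/beta hydrolase family annotated here as a processed transcript, led with 5.0, 5.93 and 6.49 CPM (lowest, median and highest) in LacQ140 against 1.24, 1.98 and 2.36 CPM in WT + IPTG (1.65 ± 0.18, adjusted p = 1.40e-08). Cirbp, the cold-inducible RNA-binding protein, stood at 112, 119 and 143 CPM against 69.8, 82.4 and 109 CPM (0.50 ± 0.08, adjusted p = 0.000594). In both genes every LacQ140 library lay above every WT + IPTG library. Rasl11b, a Ras-like small GTPase, stood at 54.5, 61.7 and 71.2 CPM against 44.03, 49.01 and 54.4 CPM (0.35 ± 0.06, adjusted p = 0.000594). Cdt1, which licenses origins for DNA replication, had medians of 2.24 and 1.34 CPM (0.86 ± 0.16, adjusted p = 0.00205). Neither Rasl11b nor Cdt1 overlapped between LacQ140 and WT + IPTG. In WT without IPTG, Rasl11b ran from 46.9 to 63.2 CPM and Cdt1 from 0.870 to 2.45 CPM, into the LacQ140 range. Abhd1 (1.52 to 2.29 CPM) and Cirbp (59.5 to 111.3 CPM) stayed below every LacQ140 library in WT too. Map3k21, a mixed-lineage kinase, rose by 0.93 ± 0.16 on the log2 scale, with LacQ140 F5 highest at 7.85 CPM beside a group median of 4.04 CPM.

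The other 5 of these 10 were the zinc finger genes Zfp956 (0.42 ± 0.07) and Zfp641 (0.34 ± 0.06), Mreg, a melanosome transport gene (0.48 ± 0.09), the Cdc42 effector Cdc42ep3 (0.48 ± 0.09) and the nuclear protein gene Csrnp2 (0.42 ± 0.08). Their adjusted p-values ran from 0.000617 to 0.00277. LacQ140 F5 was the highest library for Csrnp2 and Cdc42ep3 as well. Cdc42ep3 ran from 14.0 to 19.8 CPM in LacQ140, from 10.5 to 13.8 CPM in WT + IPTG and from 11.8 to 17.3 CPM in WT. Tmc3, a transmembrane channel-like gene, had the next largest rise after Abhd1 among genes of at least 1 CPM (1.12 ± 0.23, adjusted p = 0.00428), and overlaps Gm16638 on the other strand.

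The fallen genes of smallest p were of mixed function as well. Dnajc1, a DnaJ protein of the endoplasmic reticulum membrane, stood at 12.8, 14.3 and 16.2 CPM against 17.7, 18.7 and 19.6 CPM (lowest, median and highest, LacQ140 first, as in all such lists), without overlap (-0.38 ± 0.06, adjusted p = 8.87e-05). It overlaps Mllt10 on the other strand, and the counting is not stated to use strand. Mall, a MAL-like membrane proteolipid, fell by the largest factor among signature genes of at least 1 CPM, with 0.455, 0.591 and 0.833 CPM against 0.879, 1.3 and 2.03 CPM and again no overlap (-1.18 ± 0.17, adjusted p = 8.87e-05). Slc38a3, the glutamine transporter of astrocytes, stood at 59.8, 69.7 and 74.9 CPM against 81.9, 90.6 and 109 CPM, also without overlap (-0.42 ± 0.07, adjusted p = 0.000873).

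Gldc, the decarboxylase of the glycine cleavage system, had a log2 fold change of -0.40 ± 0.07, the transglutaminase gene Tgm2 -0.45 ± 0.08 and the adhesion gene Igsf11 -0.36 ± 0.06. Otub2, a deubiquitinase (-0.41 ± 0.07), Zhx2, a zinc finger and homeobox repressor (-0.43 ± 0.07), and the long noncoding RNA Gm4316 (-0.68 ± 0.12) also fell, as did Pdia4, described next. Adjusted p-values of these 6 ran from 0.000594 to 0.00196. After Mall, the largest falls at 1 CPM or above were Gm48678, an antisense RNA within Itsn2 (-0.98 ± 0.20, adjusted p = 0.00428), and Lyve1, a hyaluronan receptor of lymphatic endothelium and perivascular macrophages (-0.83 ± 0.22, adjusted p = 0.0391). Lyve1 was called in 9 of the 20 fits with a library left out. In WT without IPTG the means were 0.929 ± 0.278 CPM for Lyve1, 15.9 ± 0.77 CPM for Dnajc1, 0.913 ± 0.246 CPM for Mall and 82.3 ± 9.36 CPM for Slc38a3 (SD, n = 10), beside WT + IPTG means of 1.51 ± 0.581, 18.7 ± 0.714, 1.39 ± 0.391 and 92.9 ± 10.2 CPM. With WT pooled into the control Lyve1 did not pass (-0.53, adjusted p = 0.197). Itsn2 itself did not pass (-0.09 ± 0.06, adjusted p = 0.723), and without strand the pair cannot be told apart.

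Several genes of protein folding in the endoplasmic reticulum fell. Of 21 genes listed for these chaperones and the unfolded protein response, 5 fell and 0 rose (23.8%, beside 1.2% fallen among genes of at least 1 CPM). The median log2 fold change of the 21 was -0.18, beside -0.01 over all genes of at least 1 CPM. The 5 were Hspa5, the chaperone BiP, Pdia4 and Pdia6, which form disulfide bonds, Calr, the calcium-binding chaperone calreticulin, and Xbp1, a transcription factor of the response. The stretch before the start of 3 of them is shown because it holds the endoplasmic reticulum stress response element, by which Atf6 is known to act on chaperone genes. Each is the 250 bases before the RefSeq transcription start (GRCm38.p6), 5′ to 3′ on the strand of the gene, with the element in capitals, which is CCAAT, 9 bases of any kind and CCACG, or the reverse complement of that. They lie at chr2:34771840-34772089 (plus strand), chr12:17266339-17266588 (plus strand) and chr8:84846932-84847181 (minus strand).
Hspa5: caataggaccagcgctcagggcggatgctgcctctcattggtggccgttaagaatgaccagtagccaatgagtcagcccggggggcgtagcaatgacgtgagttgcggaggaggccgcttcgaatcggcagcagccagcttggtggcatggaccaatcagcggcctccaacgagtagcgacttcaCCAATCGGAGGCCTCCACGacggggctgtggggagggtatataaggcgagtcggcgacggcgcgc
Pdia6: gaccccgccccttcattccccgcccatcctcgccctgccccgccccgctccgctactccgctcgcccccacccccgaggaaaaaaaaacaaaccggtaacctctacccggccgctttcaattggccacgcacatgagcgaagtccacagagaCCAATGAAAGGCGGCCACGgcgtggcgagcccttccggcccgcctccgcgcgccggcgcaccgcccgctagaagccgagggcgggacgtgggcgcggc
Calr: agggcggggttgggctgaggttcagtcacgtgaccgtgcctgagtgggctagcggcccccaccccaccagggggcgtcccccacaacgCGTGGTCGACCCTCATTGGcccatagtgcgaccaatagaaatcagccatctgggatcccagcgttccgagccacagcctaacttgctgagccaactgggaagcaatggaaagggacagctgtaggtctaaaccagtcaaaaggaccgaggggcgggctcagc
The element ended 46 bases before the start in Hspa5, 79 in Pdia6 and, on the opposite strand, 143 in Calr. Searched on both strands of 300-base windows that run to 50 bases past the start, it was present in 0.137% of 27025 genes. On the list it was found in 8 of the 18 genes with a window: Hspa5, Pdia6, Calr, Canx, Creld2, Dnajc3, Hsp90b1 and Syvn1. The windows of Pdia4 and Xbp1 did not hold these letters.

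Hspa5 stood at 157, 176 and 193 CPM against 180.2, 237 and 270.6 CPM (-0.40 ± 0.07, adjusted p = 0.00205), and 6 LacQ140 libraries lay below the whole WT + IPTG range. Pdia4 stood at 16.8, 20.9 and 23.7 CPM against 21.6, 31.8 and 32.6 CPM (-0.50 ± 0.08, adjusted p = 0.000161), with 8 LacQ140 libraries below that range. For both genes M5, M4 and F5 were the 3 lowest WT + IPTG libraries. Pdia6 stood at 66.3, 75.4 and 84.6 CPM against 74.1, 96.7 and 107 CPM (-0.34 ± 0.07, adjusted p = 0.00428). Calr stood at 184, 204 and 223.7 CPM against 216, 238.6 and 286.9 CPM (-0.28 ± 0.07, adjusted p = 0.0188) and Xbp1 at 60.4, 72.3 and 85.9 CPM against 75.04, 87.5 and 101 CPM (-0.28 ± 0.07, adjusted p = 0.0224). In 9 LacQ140 libraries Calr, and in 7 Xbp1, lay below the WT + IPTG range. Hspa5, Pdia4 and Pdia6 were called with every library left out, whereas Calr lost its call without LacQ140 F2 or WT + IPTG F2, M2 or M3, and Xbp1 without LacQ140 F2 or F5 or WT + IPTG F2, M1, M2 or M3.

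In all, 19 of the 21 genes had a log2 fold change below 0. Among those that did not pass were Sdf2l1 (-0.51 ± 0.14, adjusted p = 0.0589), Creld2 (-0.32 ± 0.09, adjusted p = 0.0748), Hyou1 (-0.23 ± 0.07, adjusted p = 0.0793) and Hsp90b1 (-0.20 ± 0.06, adjusted p = 0.12), all of them folding factors. Canx, the membrane-bound partner of calreticulin (-0.09 ± 0.08), and P4hb, the founding protein disulfide isomerase (-0.04 ± 0.05), were near 0, as was Herpud1 of the degradation arm (0.00 ± 0.05). Hspa5 had means of 177 ± 17.5 CPM in LacQ140_A and 195 ± 19.0 CPM in LacQ140_2M (SD, n = 10), beside 176 ± 12.6 CPM in LacQ140 and 217 ± 34.2 CPM in WT. Pdia4 had 21.9 ± 1.84, 24.4 ± 2.28, 20.7 ± 2.04 and 26.5 ± 3.97 CPM in the same order.

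**Figure D1:**
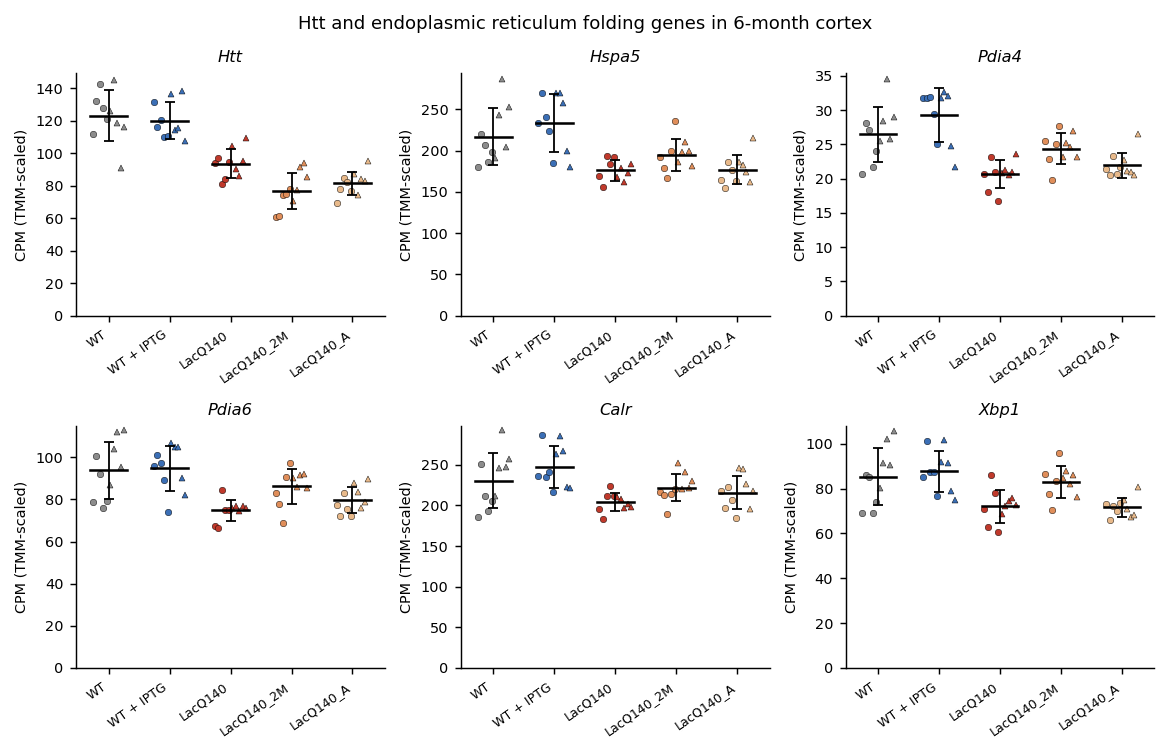
Level of Htt and of 5 genes of the endoplasmic reticulum list (y axis, TMM-scaled CPM) in each of the 50 cortical libraries at 6 months, by group on the x axis. Circles are females and triangles males, and bars show mean ± SD (n = 10). LacQ140 has the lower mean than WT + IPTG in each panel, with Hspa5 medians of 176 and 237 CPM.

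Other stress lists held 1 or 2 calls each, beside 1.2% fallen and 0.761% risen among genes of at least 1 CPM. Of 26 heat shock chaperones and co-chaperones 2 fell and 0 rose: Chordc1, an Hsp90 co-chaperone, with 17.8, 25.6 and 28.5 CPM against 30.8, 35.8 and 39.9 CPM (-0.53 ± 0.14, adjusted p = 0.0456), and Ahsa2, an activator of the Hsp90 ATPase (-0.27 ± 0.06, adjusted p = 0.0153). The groups did not overlap for Chordc1, yet it was called in only 3 of the 20 fits with a library left out, those without LacQ140 M5 or WT + IPTG M4 or M5. The heat-inducible genes Hspa1a (0.05 ± 0.25) and Hspa1b (0.04 ± 0.24) were near 0. Among 20 amino acid response genes driven by Atf4, the mitochondrial folate enzyme gene Mthfd2 fell (-0.38 ± 0.08, adjusted p = 0.00472) and no other member passed. Of 5 cold-inducible RNA-binding protein genes Cirbp rose, while Rbm3 had 0.28 ± 0.12 (adjusted p = 0.307).

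Immediate early genes, which neurons switch on within minutes of activity, held the most calls of any list. Of 25 listed, 6 rose and 1 fell (28%, beside 1.96% called among genes of at least 1 CPM). Fos stood at 39.3, 48.9 and 58.8 CPM against 24.2, 29.1 and 36.05 CPM (0.74 ± 0.16, adjusted p = 0.00974). Dusp1, a phosphatase of MAP kinases, stood at 52.2, 61.5 and 68.04 CPM against 34.5, 38.5 and 47.9 CPM (0.63 ± 0.13, adjusted p = 0.0049), and the nuclear receptor gene Nr4a1 at 116.4, 141 and 160.1 CPM against 74.8, 86.0 and 107.6 CPM (0.63 ± 0.15, adjusted p = 0.016). For these 3 genes the groups did not overlap. Junb (0.73 ± 0.19, adjusted p = 0.0342), Ier2 (0.73 ± 0.17, adjusted p = 0.0208) and Btg2 (0.75 ± 0.18, adjusted p = 0.0219) rose as well, Junb in 12 of the 20 fits with a library left out. The other activity genes Egr1 (0.04 ± 0.13, adjusted p = 1.0), Arc (0.44 ± 0.18, adjusted p = 0.291) and Npas4 (0.53 ± 0.18, adjusted p = 0.167) did not pass.

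WT + IPTG was the low group for these genes. In WT without IPTG the means were 54.6 ± 18.6 CPM for Fos, 65.4 ± 14.8 CPM for Dusp1 and 142 ± 46.5 CPM for Nr4a1 (SD, n = 10), beside LacQ140 means of 49.2 ± 6.29, 61.3 ± 5.18 and 139.6 ± 14.3 CPM. The WT libraries spread widely, from 30.9 to 86.0 CPM for Fos. Against WT, IPTG lowered 7 of the 25 genes and raised 0 (beside 0.686% lowered among genes of at least 1 CPM), among them Fos (-0.89, adjusted p = 0.00258) and Dusp1 (-0.72, adjusted p = 0.0019). Fos, Dusp1, Nr4a1 and Btg2 were thus set aside, and Junb, Ier2 and Homer1 remained in the signature. With WT and WT + IPTG pooled as the control, the log2 fold change was 0.23 for Fos, 0.22 for Dusp1, 0.51 for Junb and 0.45 for Ier2, and none of the 4 passed (adjusted p = 0.585, 0.483, 0.0842 and 0.121).

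Homer1 went the other way. This synaptic scaffold gene, whose short form is an immediate early transcript, stood at 81.7, 95.6 and 111 CPM against 99.7, 145 and 173 CPM (-0.54 ± 0.12, adjusted p = 0.0155), with 7 LacQ140 libraries below the WT + IPTG range. IPTG in WT left it at 0.07 (adjusted p = 0.889), and with WT pooled it was called (-0.51, adjusted p = 0.00438). Its means were 95.4 ± 17.7 CPM in LacQ140_A, 122 ± 32.7 CPM in LacQ140_2M and 134 ± 40.3 CPM in WT. Long and short forms are summed in these counts.

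**Figure D2:**
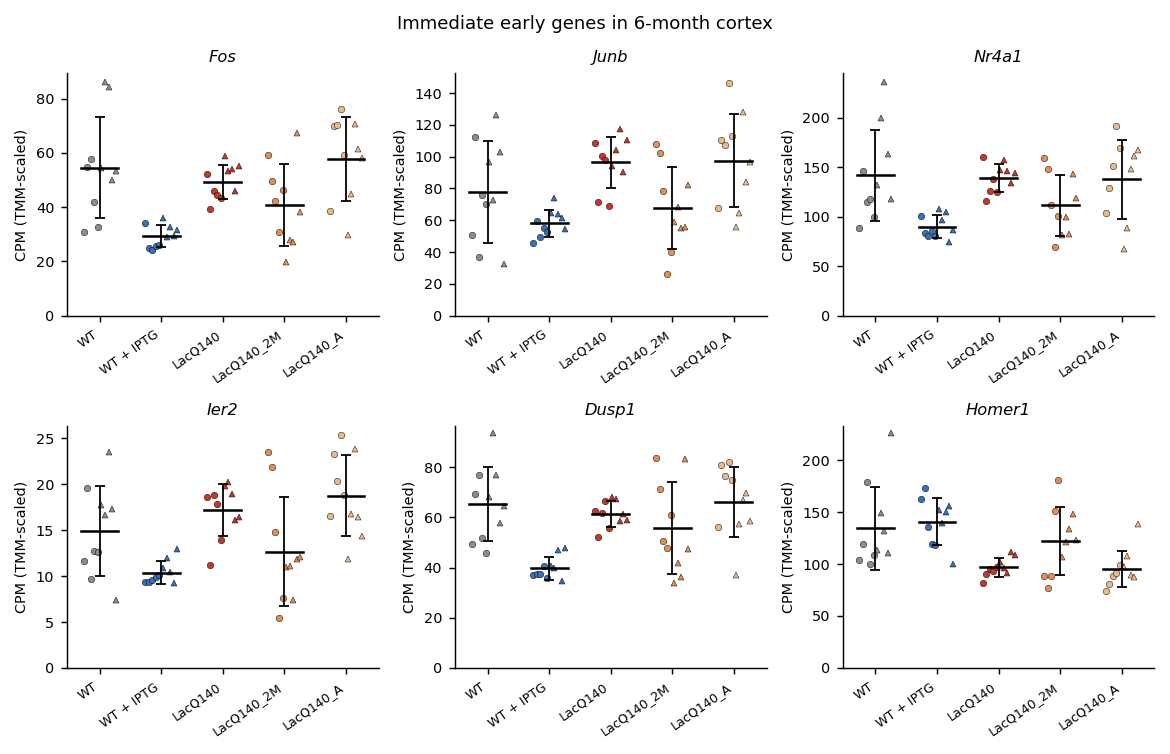
Level of 6 immediate early genes (y axis, TMM-scaled CPM) in each of the 50 cortical libraries at 6 months, by group on the x axis, with circles for females, triangles for males and bars for mean ± SD (n = 10). WT + IPTG has the lowest mean for Fos, Junb, Nr4a1, Ier2 and Dusp1, with a Fos median of 29.1 CPM against 48.9 CPM in LacQ140, and Homer1 has a lower mean in LacQ140 than in WT + IPTG.

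Some vessel genes fell. Of 18 endothelial and pericyte genes 5 fell and 0 rose (27.8%, beside 1.2% fallen among genes of at least 1 CPM), 16 had a log2 fold change below 0 and the median was -0.23. In a bulk library fewer cells of a type and less RNA per cell cannot be told apart. Acta2, smooth muscle actin, stood at 20.7, 26.5 and 35.9 CPM against 28.7, 40.8 and 52.3 CPM (-0.57 ± 0.11, adjusted p = 0.00205). Ly6c1, a surface protein of brain endothelium, stood at 46.7, 57.2 and 66.4 CPM against 61.9, 69.7 and 93.9 CPM (-0.38 ± 0.08, adjusted p = 0.00886), and its relative Ly6a at 28.3, 36.1 and 44.8 CPM against 41.7, 50.4 and 66.9 CPM (-0.54 ± 0.09, adjusted p = 0.000594). In each of these Ly6 genes 9 LacQ140 libraries lay below the whole WT + IPTG range. They are close relatives, so reads may be shared between copies.

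Cdh5, the endothelial cadherin (-0.27 ± 0.07, adjusted p = 0.0456), and Kcnj8, a pericyte potassium channel (-0.36 ± 0.09, adjusted p = 0.0351), lost the call without any one of 14 and of 7 libraries respectively. Pecam1, an endothelial adhesion molecule, passed the p threshold but not the 20% bound (-0.24 ± 0.06, adjusted p = 0.03). The tight junction gene Cldn5 (-0.08 ± 0.13) and the pericyte receptor gene Pdgfrb (0.07 ± 0.07) did not pass. The summed level of the 18 genes was 734, 864 and 930 CPM in LacQ140 against 914, 960 and 1160 CPM in WT + IPTG. LacQ140 F1 was the lowest of the 20 libraries, and WT + IPTG M2 and M3 were the highest. The medians of WT, LacQ140_2M and LacQ140_A were 957, 926 and 937 CPM. In WT, IPTG raised 3 of the 18 genes and lowered 1 (0.609% of all genes were changed by it), with Ly6a among those raised (0.49, adjusted p = 0.00258), so Ly6a is outside the signature.

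**Figure D3:**
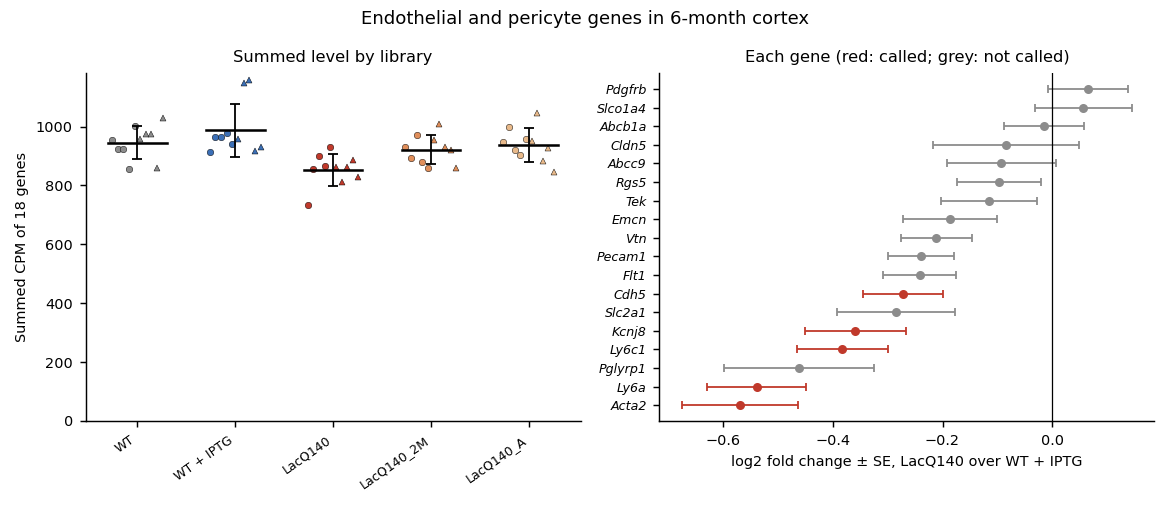
Left, summed TMM-scaled CPM of 18 endothelial and pericyte genes (y axis) in each cortical library by group (x axis), with circles for females, triangles for males and bars for mean ± SD (n = 10). Right, log2 fold change ± SE of each gene between LacQ140 and WT + IPTG, called genes in red, with 16 of 18 below 0.

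Apart from the vessel genes, lists of cell identity held 0 or 1 calls each, beside 1.96% called among genes of at least 1 CPM. At an unadjusted p under 0.05 the astrocyte and myelin lists held more members than the share of all genes. None was called on the lists for upper-layer (14 genes), deep-layer (18) or interneuron identity (20), and their median log2 fold changes were -0.03, -0.01 and -0.03. Of 18 astrocyte genes 0 were called by edgeR (7 at an unadjusted p under 0.05, beside 17.0% of genes of at least 1 CPM) and 1 by DESeq2, 15 had values below 0 and the median was -0.13. Slc1a3, the astrocyte glutamate transporter, stood at 705, 761 and 873 CPM against 738, 911 and 1129 CPM and passed the p threshold but not the 20% bound (-0.25 ± 0.06, adjusted p = 0.0186). Gpr17, a receptor of differentiating oligodendrocyte precursors, fell with 24.4, 31.4 and 40.1 CPM against 33.9, 42.2 and 46.5 CPM (-0.37 ± 0.08, adjusted p = 0.00981), the sole call among 9 precursor genes. It lies within Lims2, which also fell (-0.35 ± 0.08, adjusted p = 0.0167), and the 2 falls are not shown to be separate. Of 20 oligodendrocyte and myelin genes 0 were called by edgeR or DESeq2 (8 at an unadjusted p under 0.05, beside the same 17.0%). Fcrls was the sole call among 20 microglial and complement genes (-0.34 ± 0.09, adjusted p = 0.0367), in 8 of the 20 fits with a library left out.

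Synaptic and metabolic lists likewise held 0 or 1 calls each, close to the 1.96% called among genes of at least 1 CPM. Of 28 glutamate receptor genes Grm3, a presynaptic and glial metabotropic receptor, fell with 37.5, 43.6 and 50.6 CPM against 45.7, 54.5 and 62.1 CPM (-0.34 ± 0.09, adjusted p = 0.0391), a call lost in 12 of the 20 fits with a library left out. There were 0 calls among 20 GABA genes, 41 potassium channels, 33 calcium channel, pump and kinase genes, 31 genes of vesicle release, 18 neurofilament and axonal genes and 16 neurotrophin and receptor genes. Bdnf, the neurotrophin made by cortical neurons, had 17.4, 22.5 and 26.0 CPM against 22.3, 26.9 and 31.6 CPM (-0.32 ± 0.11, adjusted p = 0.184), with 5 LacQ140 libraries below the WT + IPTG range. Nor was any of 73 nuclear-encoded and 13 mitochondrially encoded respiratory chain genes, 31 proteasome subunits, 58 ribosomal protein genes or 33 lysosome and autophagy genes called. The lists of glucocorticoid responsive genes (20), abundant nuclear long noncoding RNAs (12), blood cell genes (9) and pituitary hormone genes (7) held 0 calls. By DESeq2 too each of these lists with 0 calls and those for upper-layer, deep-layer and interneuron identity held none, and 0 to 6 members of each had an unadjusted p under 0.05 by edgeR, beside 17.0% of genes of at least 1 CPM. The ribosomal protein genes had a median of 0.11, with 56 of 58 above 0. Their summed level ran from 15197 CPM (M5) to 31378 CPM (M3) within LacQ140. Within WT + IPTG it ran from 16664 CPM (M1) to 27284 CPM (M5). The slope of level on transcript length was 0.43 and 0.22 in the first pair of libraries and 0.43 and 0.28 in the second. Whether length plays a part in the shift was not tested.

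Single members of a few more lists passed, beside 1.96% of genes of at least 1 CPM, and 1 call in a list of this size is close to that share. Ciart, a repressor of the circadian clock, stood at 15.1, 19.0 and 23.4 CPM against 9.89, 11.9 and 15.2 CPM (0.63 ± 0.14, adjusted p = 0.00875), with 9 LacQ140 libraries above the WT + IPTG range, and it was the sole call among 19 clock genes. Pms2, a mismatch repair gene of the MutL family, stood at 23.6, 27.1 and 30.4 CPM against 19.1, 22.1 and 25.2 CPM (0.27 ± 0.06, adjusted p = 0.0114), the sole call among 17 repair and repeat expansion genes. Cbx2, a Polycomb subunit, had medians of 2.8 and 2.01 CPM (0.52 ± 0.12, adjusted p = 0.0218), the sole call among 25.

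Within 10 Mb of Htt 6 of 362 genes were called (1.66%, beside 0.881% of all genes), and 3 of the 154 with a mean of at least 1 CPM (1.95%, beside 1.96%). With Htt they were Abhd1 at chr5:30950066-30955091, Prkag2, a subunit of the AMP-activated kinase, with 52.2, 62.7 and 70.3 CPM against 69.4, 75.1 and 79.3 CPM (-0.27 ± 0.05, adjusted p = 0.0049), and 3 neighbouring genes at low level. Gm6089, a processed pseudogene at chr5:26070537-26071474, had medians of 0.422 and 0.0567 CPM (2.58 ± 0.42, adjusted p = 0.000522). The gene 5031410I06Rik at chr5:26098668-26105362 had 0.367 and 0.0407 CPM (2.38 ± 0.52, adjusted p = 0.00863), and the processed pseudogene Gm5067 1.04 and 0.691 CPM (0.65 ± 0.17, adjusted p = 0.041). Prkag2 was called in 11 and Gm5067 in 8 of the 20 fits with a library left out. Just outside the window, on the side of Prkag2, lay AI506816 (-0.65 ± 0.13), Rint1 (-0.27 ± 0.06), 2700038G22Rik (1.04 ± 0.28) and Nos3 (-0.36 ± 0.10). These signature genes at chr5:23698296-24384474 were called in 20, 15, 7 and 5 of those fits. The count near Htt thus depends on where the window ends, and a link to the targeted segment was not tested. Counts of pseudogenes can be reads of other copies. Abhd1 overlaps Preb on the opposite strand, and Preb had medians of 54.4 and 54.6 CPM (adjusted p = 1.0). Abhd1 had means of 5.4 ± 1.91 CPM in LacQ140_A and 5.89 ± 1.57 CPM in LacQ140_2M, beside 5.94 ± 0.418 CPM in LacQ140 and 1.82 ± 0.261 CPM in WT. The repressed groups were split: LacQ140_A F4 and M5 stood at 1.81 and 2.07 CPM and LacQ140_2M M4 at 1.79 CPM, within the WT + IPTG range, while the other 17 libraries stood at 5.17 to 7.51 CPM. What sets these 3 apart was not tested.

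The size of the signature changed with the library left out. Leaving out each library in turn gave 141 to 380 genes, with 141 without WT + IPTG M3, 149 without LacQ140 F1, 179 without WT + IPTG M2 and 187 without WT + IPTG M1. LacQ140 F1, WT + IPTG M2 and WT + IPTG M3 were the libraries of extreme vessel level. Without all 3 the signature was 32 genes, 30 of them among the 288, and without the 3 libraries rich in choroid plexus RNA it was 83 genes, 79 of them among the 288. Both sets were chosen after the levels were seen, and these fits have 3 libraries fewer. The first set was picked on the summed vessel level itself, so smaller vessel differences without it follow from the choice.

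Fold changes moved less than calls. Without the 3 libraries of extreme vessel level the log2 fold change was -0.46 for Pdia4 (adjusted p = 0.00729), -0.35 for Hspa5 (0.06), -0.28 for Pdia6 (0.111) and -0.51 for Homer1 (0.136). Among vessel genes it was -0.43 for Ly6a (0.0383), -0.44 for Acta2 (0.0747) and -0.26 for Ly6c1 (0.265). The lists then held 1 call of 21 endoplasmic reticulum genes, 1 of 25 immediate early genes and 1 of 18 vessel genes. Among all genes of at least 1 CPM 0.242% were called in that fit. Without the choroid-rich libraries the lists held 2, 2 and 3 calls, beside 0.579%. Abhd1, Cirbp, Mall, Dnajc1, Slc38a3 and Htt were still called without the 3 libraries of extreme vessel level.

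**Figure D4:**
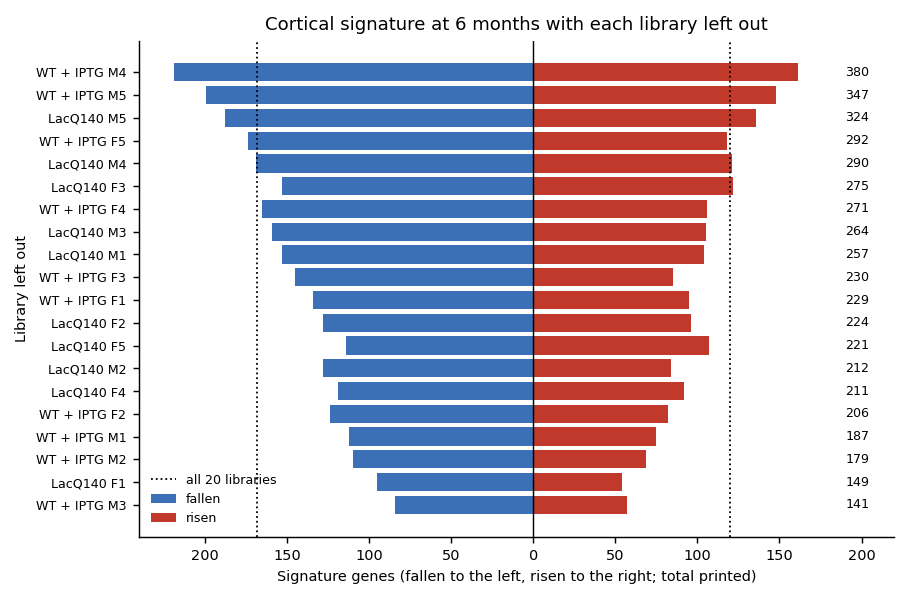
Number of signature genes when the library named on the y axis is left out, with fallen genes to the left and risen genes to the right on the x axis and their total printed at the right. Dotted lines mark the 120 risen and 168 fallen genes with all 20 libraries, and totals run from 141 without WT + IPTG M3 to 380 without WT + IPTG M4.

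The striatum of the same mice held more calls. There 2840 of 35808 genes were called by the same rule (7.93%). They included 179 of the 288 cortical genes, 62.2% of the cortical signature and 6.3% of the striatal calls, against 14.9% of all genes of at least 1 CPM, and 176 of the 179 moved in the same direction. The effect itself differed between the tissues for 512 of 35737 genes (1.43%, interaction with the mouse as a block, adjusted p under 0.05), 22 of them signature genes. The signature was chosen on its cortical effect, which favours a larger effect in cortex. For the endoplasmic reticulum genes the striatal log2 fold changes were -0.40 for Hspa5, -0.48 for Pdia4, -0.38 for Pdia6, -0.29 for Calr and -0.32 for Xbp1. None of the 5 differed between tissues by the test. On simulated counts the test recovered 10.2% of differences of 0.3 and 44.8% of differences of 0.5 (log2). Those counts were drawn separately for each tissue, with no shared mouse effect and with cortical spread in both. These shares therefore need not hold for the paired data. The difference for Hspa5 was 0.01 ± 0.05.

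A few genes differed between the tissues. Kcng1, a modifier subunit of potassium channels, was lower in LacQ140 cortex (17.5 ± 2.96 against 22.5 ± 2.82 CPM, SD, n = 10) and higher in LacQ140 striatum (43.02 ± 4.88 against 27.2 ± 4.47 CPM), a difference of -1.02 ± 0.11 on the log2 scale (adjusted p = 2.28e-06). Ciart had 18.8 ± 2.73 and 19.7 ± 2.92 CPM in LacQ140 and WT + IPTG striatum (difference 0.71 ± 0.09, adjusted p = 1.75e-05). Dusp1 had 40.1 ± 5.63 and 37.6 ± 4.37 CPM there (difference 0.55 ± 0.07, adjusted p = 2.37e-05). Fos was higher in LacQ140 in both tissues, with a striatal log2 fold change of 1.005 (adjusted p = 0.000248).

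Mreg, Cdc42ep3 and Frat2, an activator of Wnt signalling, had differences of 0.66 ± 0.16, 0.39 ± 0.07 and 0.69 ± 0.12 towards a rise in cortex. The pseudokinase gene Trib2 and the histamine receptor gene Hrh1 had differences of -0.30 ± 0.07 and -0.45 ± 0.10, falling in cortex. The fibrillin gene Fbn1 rose in both tissues and more in striatum (-0.73 ± 0.14). Scn4b, a sodium channel subunit of striatal projection neurons, fell in striatum (-0.69) and did not pass in cortex (-0.24 ± 0.10, adjusted p = 0.336), a difference of 0.47 ± 0.10 (adjusted p = 0.0138). None of 19 genes of those neurons was called in cortex by edgeR or DESeq2 (3 at an unadjusted p under 0.05), all 19 with values below 0, beside 1.96% called and 17.0% at that p among genes of at least 1 CPM.

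At 12 months, in other mice counted in a separate table, 31 of 34493 cortical genes were called (0.0899%). Of these, 9 belonged to the 6-month signature, 3.12% of it and 29% of the 12-month calls: Abhd1, Hspa5, Homer1, Srarp, Cldn14, Gm48678, Slc45a3, Fam83d and Il33. The 12-month count depended on the fit, with 63 genes called by DESeq2, 11 of them in the signature, and 441 with only the 2 groups compared, 17 of them in the signature. At that age Hspa5 had a LacQ140 mean of 215 ± 41.5 CPM and a WT + IPTG mean of 295 ± 75.7 CPM (SD, n = 10), a log2 fold change of -0.45 (adjusted p = 0.0428 by edgeR). Homer1 had 94.1 ± 18.1 and 127 ± 13.8 CPM (-0.43, adjusted p = 0.0316), and the cytokine gene Il33 58.6 ± 8.43 and 83.1 ± 15.7 CPM (-0.50, adjusted p = 0.0149). Genes not called at that age by any of these fits included Pdia4 (-0.34, adjusted p = 0.242), Cirbp (0.35, 0.384), Fos (0.01, 1.0) and Acta2 (0.10, 0.958). Of the 288 genes, 210 (72.9%) had the same sign at 12 months, beside 51% of all genes of at least 1 CPM.

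**Figure D5:**
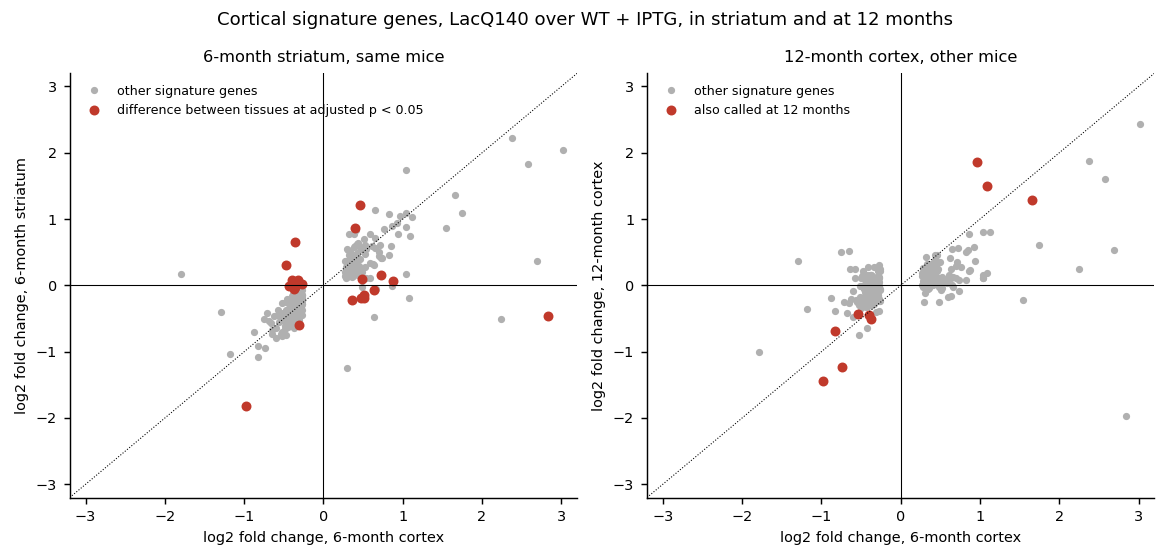
Log2 fold change between LacQ140 and WT + IPTG for the 288 signature genes in 6-month cortex (x axis, used to choose them) and, on the y axis, in 6-month striatum (left) or 12-month cortex (right), with the diagonal dotted. Red points are 22 genes whose effect differed between tissues (left) and 9 genes also called at 12 months (right).

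No difference of the effect between females and males passed the test. This holds for 35987 genes (0.0%, edgeR, smallest adjusted p = 0.108), of which 1069 had an unadjusted p under 0.05, and no other tool was run on it. On simulated counts this test recovered 0% of differences of 0.3, 17.9% of 0.5 and 71.6% of 1 on the log2 scale. The log2 fold changes were -0.60 in females and -0.41 in males for Pdia4, -0.37 and -0.44 for Hspa5, 0.58 and 0.42 for Cirbp, and -0.24 and -0.52 for Ly6c1. With 5 mice a group, 15 genes were called in females alone and 2 in males alone.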

How the data were processed

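RNA from the cortex and striatum of LacQ140 and wild-type mice was sequenced as paired ends. The authors deposited expected counts (estimated counts, not normalized) per gene for 54532 genes, 1 table per age. The aligner, quantifier and annotation version are not given in the sources used here, nor is use of strand, and the submitters' processing notes name GRCm38. Of the nonzero deposited values 32.22% were not whole (tolerance 1e-06). Counts were rounded, genes with at least 1 count were kept, and 54495 IDs matched the GENCODE annotation of GRCm38.

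The main test was the edgeR 4.0.16 quasi-likelihood test (R 4.3.3) with TMM scaling, fitted to all 5 groups of 6-month cortex (50 libraries) with group as the only term. A gene was called at a Benjamini-Hochberg adjusted p under 0.05 and a change of at least 20%, and genes called in WT + IPTG against WT were removed to give the signature. The SE is the log2 fold change divided by the square root of F, and CPM values are TMM-scaled. The tissue difference was an interaction with the mouse as a block, and the sex difference an interaction of group and sex. The 12-month table was fitted separately. Alternatives were DESeq2 1.42.0, its size factors, filterByExpr, only the groups compared, sex as a term, a replicate block, a gene length slope per library, no fold bound, pooled WT, each sex alone and each library left out. Lists are described by counts and medians.

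Named genes were Htt, the 10 risen and 10 fallen signature genes of smallest p called with every library left out, the 3 risen and 3 fallen with the largest change (all at a mean of at least 1 CPM), up to 3 called members of each of 35 lists or else the member of smallest p, and called genes within 10 Mb of Htt. All others were named after their values were seen. The result of 1 list is not reported here. The members and lists were chosen with earlier results of these data known. On counts simulated for this comparison (35070 genes) the test recovered 44.1%, 83.6% and 98.6% of genes changed by 0.3, 0.5 and 1 on the log2 scale. No 2 libraries of a group agreed within sampling noise (chi-square per degree of freedom of at least 10.3 over 90 pairs). Each library is a different mouse.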

Additional observations from a re-analysis of the deposited data

Results flagged for a closer look

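In 5 of 136 groups of 10 libraries tested (the named genes in LacQ140 and in WT + IPTG), 1 library stood apart from the other 9 by Dixon's criterion, which chance alone meets in about 5% of groups. These were LacQ140 M2, lowest for Abhd1 at 5.0 CPM and for the myelin gene Mal at 193.7 CPM, LacQ140 M5, highest for the deep-layer gene Bcl11b at 39.36 CPM, WT + IPTG F4, highest for Cdc42ep3 at 13.84 CPM, and WT + IPTG M2, highest for 5031410I06Rik at 0.4159 CPM. For Abhd1 and Cdc42ep3 the groups did not overlap even so.

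The effect differed between cortex and striatum of the same mice, by the interaction test, for 7 of the named genes. The log2 fold change in cortex minus that in striatum was 0.6638 for Mreg, 0.3884 for Cdc42ep3, 0.8642 for Gm48678, 0.553 for Dusp1, 0.7088 for Ciart, 0.4662 for Scn4b and 0.3502 for Mal. Gm48678 and Mal had striatal values of -1.82 and -0.58 beside -0.98 and -0.24 in cortex, where Mal was not called.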

How the results depend on the processing

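The comparison gave 317 called genes and a signature of 288. Leaving out 1 library gave 158 to 405 called genes and a signature of 141 to 380. Without WT + IPTG M3, LacQ140 F1, WT + IPTG M2 and WT + IPTG M1, 158, 170, 196 and 199 genes were called. Called genes and signature were 524 and 486 with only the 2 groups compared, 609 and 594 with WT pooled (214 of the 317 and 213 of the 288 among them), 562 and 501 with a gene length slope, 15 and 15 in females alone and 2 and 2 in males alone. They were 41 and 32 without the 3 libraries of extreme vessel level, and 92 and 83 without the 3 of highest choroid plexus level, both added after the data were seen. The cause of these shifts was not tested, except that the fits of 2 groups, of 1 sex and without 3 libraries have fewer libraries. DESeq2 gave 421 and 380, filterByExpr 458 and 417 and sex as a term 369 and 337. The tissue difference gave 790 genes with filterByExpr against 512, and the 12-month cortex 63 with DESeq2 and 441 with only the 2 groups compared against 31. With the replicate block the count of called genes was 95.9% of that without it and the signature 96.5%, and IPTG changed 152 genes in place of 219. The numbers do not pair mice across genotypes (correlations of -0.402 to 0.389 over 10 pairs, with 0 libraries correlating best with their own number). Of 1380 alternative values of the 46 called named genes 137 no longer passed, and no sign reversed. This tally leaves out the fits with WT pooled, in females alone and in males alone, in which 38, 7 and 1 of the 46 were called. On simulated counts 44.1% of changes of 0.3 were recovered, so small changes were often below what this depth and number of mice can show.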
